A study of Mus musculus with 6 samples.

Results

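The genes described here are 32 genes of ependymal cells and cilia, listed by name, with earlier results of these data known. They fall into 24 genes of motile cilia and ependymal cells and 8 genes of transport into the primary cilium. A probe set that pairs with 1 gene alone was found for 30 of them, 23 motile and 7 transport, among the 22180 genes with such a probe set. Ccdc39 shares its probe set with Ttc14, and Arl13b has none that was matched, so neither has a value here. RNA was measured on 6 Affymetrix Mouse Gene 2.0 ST arrays, 3 of MG and 3 of PBS. The mice were CD1, an outbred stock, and 2 months old. The mothers of the MG group had received MG (methylglyoxal, going by the series title) at 0.5 mg/kg in 2 intraperitoneal injections a day from gestational day 12 to birth, and those of the PBS group had received PBS on the same schedule. Both groups share the culture: cells of the subependymal region grown for 7 days in serum-free medium with 20 ng/ml EGF and 10 ng/ml FGF2. Neurospheres are floating colonies that grow from neural stem and progenitor cells and are a mixture of cell states. The labels call them primary in the titles and secondary in the descriptions. They do not give the sex of the mice, how many mice went into a culture or whether mice of a group shared a mother, so the p-values measure only the spread between these 6 cultures, and a litter cannot be told apart from the injections.

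Ependymal cells line the brain ventricles and carry tufts of motile cilia that move cerebrospinal fluid, and they stop dividing as they mature. The stem cells beside them carry a single primary cilium, a sensory antenna that lacks the machinery for beating. Both kinds of cilium are built by intraflagellar transport, in which motors carry cargo along the microtubules, and the motile kind adds dynein arms, radial spokes and a central pair of microtubules. Foxj1 is the main regulator of the motile programme, and the RFX factors act on genes of both kinds.

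The cultures carried the markers of neural progenitors, beside markers of other neural lineages given below. On the 6 arrays the log2 value was 12.6 to 12.9 for Olig2, 11.8 to 12.0 for Egfr, 10.99 to 11.27 for Sox2 and 10.6 to 10.9 for Nes. The arrays numbered 3 in each group stood apart, with the 11 proliferation markers at 0.37 in MG and 0.40 in PBS relative to the average of the 6 arrays, and between -0.36 and -0.09 elsewhere. Correlations between arrays over all genes lay between 0.984 and 0.995, so no array was a copy of another.

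Every measured transport gene was above background in both groups, and 10 of 23 motile genes were. Brightness has no common scale between probe sets, so each level was read only against the background of 1105 olfactory receptor genes, a family made in the nose. The 95th percentile of their mean levels was 5.04 on the log2 scale, and their median was 2.88. Of the 7 transport genes, 7 exceeded 5.04 in the mean of each group and on each of the 6 arrays. On each of the 6 arrays, 12782 of all 22180 genes exceeded 5.04. Of the 23 motile genes, 10 exceeded it in both groups, 12 in neither, and Ak7 in MG only. The share was 43.5% for the motile genes and 61.5% for all genes, against 4.43% of the olfactory receptors themselves. At the stricter 99th percentile, 6.04, the transport count was still 7 and the motile count was 5, made up of Foxj1, Rfx2, Rfx3, Rsph1 and Rsph9. Without both arrays numbered 3, the counts at the 95th percentile were again 10 motile and 7 transport genes. The members nearest to 5.04 were Dnali1, with a mean of 5.15 over the 6 arrays, just above it, and Ak7 at 4.996 and Hydin at 4.91, just below it.

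**Figure D1:**
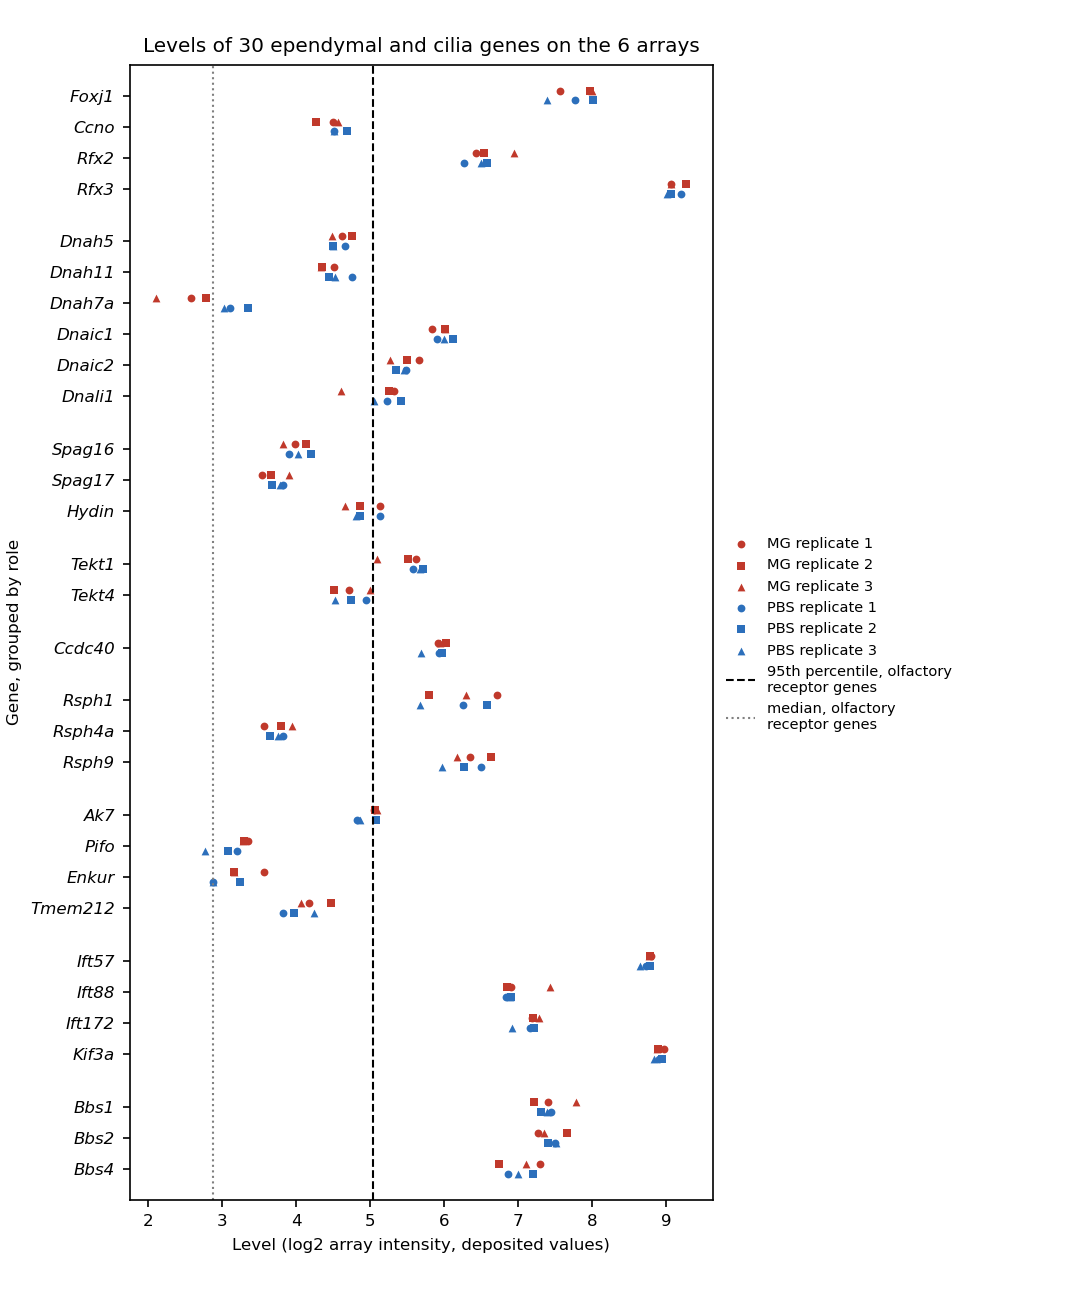
Log2 intensity of the 30 measured genes on each array, with MG in red above PBS in blue and 1 symbol per replicate number. The dashed line is the 95th percentile of the olfactory receptor genes (5.04) and the dotted line their median (2.88); all transport genes at the bottom lie right of the dashed line, and Pifo, Enkur and Dnah7a lie closest to the dotted one. Positions of different genes should be read against the lines and not against each other.

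Of the 4 regulators, Foxj1, Rfx2 and Rfx3 were above background in both groups and Ccno was below it. Foxj1, which switches on the motile cilia programme, had log2 values of 7.57, 7.97 and 8.002 in MG and 7.77, 8.01 and 7.39 in PBS. The groups overlapped and PBS replicate 3 was the lowest array. No olfactory receptor reached the mean level of Foxj1. MG minus PBS was 0.12 on the log2 scale (standard error 0.19, 95% interval -0.32 to 0.57). Without both arrays numbered 3 the difference was -0.12. Rfx3, a factor that binds the X-box of ciliary promoters, averaged 9.13 ± 0.12 in MG and 9.09 ± 0.10 in PBS (SD, n = 3 each). Rfx2, its relative in multiciliated and germ cells, averaged 6.63 ± 0.27 in MG and 6.45 ± 0.16 in PBS (SD, n = 3 each). Ccno, a cyclin-like protein that mouse cells need to multiply their centrioles before they make many cilia, was below background in both groups, at 4.44 ± 0.15 in MG and 4.57 ± 0.10 in PBS (SD, n = 3 each).

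The X-box was looked for in the promoters because Rfx2 and Rfx3 were among the members above background. RefSeq promoters of GRCm38.p6, from 250 bases before to 50 bases after the start of the gene, were found for 29 of the 32 genes, all but Foxj1, Rsph1 and Rsph4a. A loose form of the X-box (GT, 2 bases of any kind, CC, 3 of any kind, G, 1 of any kind, AAC) occurred on either strand in 9 of them (31%), and in 2.49% of 27025 genes. They were 6 of 21 motile genes (28.6%) and 3 of 8 transport genes (37.5%). This form was chosen after several forms had been counted, so these shares are a description and not a test. The 3 transport genes were Bbs1, Bbs4 and Ift57, above background in both groups. The 6 motile genes were Ccno, Enkur, Hydin, Pifo, Spag16 and Tekt4, below background in both groups. These letters were thus found in genes on both sides of the background level. The shorter RFX letters GTTGCC, which can lie inside the longer motif, occurred in 17 of 29, against 14.1% of all genes. The forkhead letters TGTTTAC occurred only in Ak7 among the 29, against 4.05% of all genes. A match describes the letters and does not show that a factor binds there. A 30-base stretch per gene is printed 5′ to 3′ in the direction of the gene, with the match in capitals, to set the transport genes beside the dim motile genes. In Ift57, Bbs1, Ccno, Hydin and Tekt4 the capitals match the form when read on the opposite strand, and in Pifo on both strands.
Ift57: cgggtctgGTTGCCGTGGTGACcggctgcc
Bbs1: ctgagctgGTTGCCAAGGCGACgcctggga
Bbs4: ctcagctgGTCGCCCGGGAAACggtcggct
Ccno: gggctgcgGTTGCCACGGTGACgacagacg
Spag16: ggcaacgcGTTGCCGTAGTAACtgcggacg
Hydin: actctgcgGTTGCTGTGGCAACagatggta
Pifo: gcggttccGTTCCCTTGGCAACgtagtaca
Enkur: tagcaactGTTTCCTTAGCAACcacgtggt
Tekt4: tatacaatGTTCCTTAGGCAACcaggaacc

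The stretches lie, in GRCm38.p6, at chr16:49699199-49699228 on the plus strand for Ift57, chr19:4906605-4906634 on the minus strand for Bbs1 and chr9:59353464-59353493 on the minus strand for Bbs4. Those of the motile genes lie at chr13:112987575-112987604 (plus) for Ccno, chr1:69826859-69826888 (plus) for Spag16, chr8:110266948-110266977 (plus) for Hydin, chr3:106001496-106001525 (minus) for Pifo, chr2:21205356-21205385 (minus) for Enkur and chr17:25471582-25471611 (plus) for Tekt4. The first capital is at position -219 from the start of the gene in Ccno, -103 in Spag16, -87 in Ift57, -21 in Hydin, -20 in Pifo and -12 in Enkur. It lies at position 1 in Tekt4, 2 in Bbs1 and 24 in Bbs4, after the start. Pifo and Tekt4 each hold a further match, at positions -71 and -160.

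Of the 6 axonemal dynein genes among the members, the 3 that encode intermediate or light intermediate chains were above background in both groups, and the 3 that encode heavy chains were not. Dnaic1 and Dnaic2 encode intermediate chains of the outer dynein arm. Dnaic1 averaged 5.95 ± 0.10 in MG and 6.01 ± 0.10 in PBS, and Dnaic2 5.48 ± 0.19 in MG and 5.43 ± 0.07 in PBS (SD, n = 3 each). Dnali1, an inner arm light intermediate chain, averaged 5.06 ± 0.40 in MG and 5.23 ± 0.19 in PBS (SD, n = 3 each) and exceeded the background on 5 of 6 arrays. MG replicate 3, at 4.60, was the exception. The outer arm heavy chain genes Dnah5 (4.62 in MG and 4.55 in PBS) and Dnah11 (4.40 in MG and 4.57 in PBS) were below background on all arrays. Dnah7a, an inner arm heavy chain gene, was the dimmest member, near the median of the olfactory receptors. The split by chain did not hold throughout outside the members. The heavy chain gene Dnah1 was narrowly above background, at 5.05 in MG and 5.12 in PBS, and Dnah2 was above it in MG only. Dnah6, Dnah8, Dnah9, Dnah10 and Dnah17 were below it in both groups.

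Dnah7a also had the largest difference between the groups among the members, at a level where its signal cannot be told from background. Its values, given because the groups did not overlap, a choice made after they were seen, were 2.58, 2.79 and 2.11 in MG and 3.11, 3.34 and 3.03 in PBS. All 3 MG arrays were lower than all 3 PBS arrays, and all 6 were below 5.04, so no fold is given. MG minus PBS was -0.67 on the log2 scale (standard error 0.19), the unadjusted p in limma was 0.00774 and the adjusted p was 0.9998 (Benjamini-Hochberg). A probe set that names Dnah7a, Dnah7b and Dnah7c together was above background, averaging 5.54 in MG and 5.51 in PBS, a difference of 0.03. The reason why the probe sets differ was not tested.

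The central pair genes Spag16, Spag17 and Hydin, whose products stand around the middle microtubules of the motile axoneme, were below background in the mean of both groups. Hydin passed it on 2 arrays, those numbered 1 in MG and in PBS. Spag16 averaged 3.98 ± 0.16 in MG and 4.04 ± 0.15 in PBS (SD, n = 3 each). Spag17 averaged 3.70 ± 0.19 in MG and 3.76 ± 0.08 in PBS, and Hydin 4.89 ± 0.23 in MG and 4.94 ± 0.17 in PBS (SD, n = 3 each). Spag17 and Hydin each have another probe set, also dim, with means of 3.51 in MG and 3.42 in PBS for Spag17 and of 4.92 in MG and 4.82 in PBS for Hydin. The pairs of probe sets disagreed in the sign of the difference, which lay within the spread between arrays in each.

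Radial spoke heads, which pass signals between the central pair and the dynein arms, were represented by 2 genes above background and 1 below. Rsph1 had the widest spread between arrays of the same group among all members, with a within-group SD of 0.46. Its log2 values, given for that reason, were 6.71, 5.79 and 6.30 in MG and 6.26, 6.58 and 5.67 in PBS. High and low arrays occurred in both groups, the difference was 0.09, and its confidence interval ran from -0.57 to 0.76. Rsph9 averaged 6.38 ± 0.23 in MG and 6.25 ± 0.27 in PBS (SD, n = 3 each). Rsph4a, by contrast, stood at 3.77 ± 0.19 in MG and 3.74 ± 0.09 in PBS (SD, n = 3 each), below background. Ccdc40, part of the molecular ruler that spaces spokes and inner arms along the axoneme, averaged 5.96 ± 0.05 in MG and 5.86 ± 0.15 in PBS (SD, n = 3 each). The probe set that Ccdc39 shares with Ttc14 averaged 6.13 in MG and 6.15 in PBS and cannot be assigned to either gene.

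Tekt1 had the smallest unadjusted p among the motile genes above background. It encodes a tektin, a filament protein of the doublet microtubules, and had log2 values of 5.62, 5.51 and 5.09 in MG and 5.58, 5.71 and 5.67 in PBS. MG replicate 3 was low, and MG replicate 1 lay within the range of PBS. The difference was -0.24 with a standard error of 0.16, the unadjusted p was 0.159 and the adjusted p in limma was 0.9998. Without MG replicate 3 it was -0.086. Tekt4 was below background, at 4.74 ± 0.24 in MG and 4.74 ± 0.21 in PBS (SD, n = 3 each).

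The remaining motile genes, Ak7, Pifo, Enkur and Tmem212, were at or below background, and all 4 had higher means in MG. So did 652 of the 1105 olfactory receptor genes and 53.8% of all genes. Ak7, an adenylate kinase whose loss in mice impairs cilia, crossed the background level in MG alone, with values of 5.05, 5.07 and 5.09 in MG and 4.83, 5.07 and 4.86 in PBS. PBS replicate 2 reached the MG range, so the groups overlapped. Pifo, linked in mice to the disassembly of the primary cilium, had log2 values of 3.36, 3.30 and 3.28 in MG and 3.20, 3.08 and 2.77 in PBS. The groups did not overlap, but all 6 values were far below 5.04. MG minus PBS was 0.30 (standard error 0.14), and the unadjusted p was 0.0659. Enkur, which encodes an axonemal protein that binds calcium channels, averaged 3.30 ± 0.23 in MG and 3.00 ± 0.22 in PBS (SD, n = 3 each). Tmem212, a membrane protein gene used as an ependymal marker in the mouse, averaged 4.24 ± 0.21 in MG and 4.02 ± 0.21 in PBS (SD, n = 3 each). Neither Pifo, Enkur nor Tmem212 exceeded the background on any array, so a difference in expression cannot be read from these values.

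Of the intraflagellar transport genes, Ift57, Kif3a and Ift172 varied less between arrays of a group than the median gene above background, and Ift88 varied more, with a within-group SD of 0.226. Ift57, a subunit of the complex that carries cargo to the ciliary tip, had log2 values of 8.79, 8.78 and 8.77 in MG and 8.72, 8.78 and 8.65 in PBS. It was the steadiest member, with a within-group SD of 0.046, against a median of 0.18 over genes above background. Kif3a, a subunit of the kinesin motor that moves this complex, averaged 8.91 ± 0.05 in MG and 8.89 ± 0.06 in PBS (SD, n = 3 each). Ift172 averaged 7.22 ± 0.06 in MG and 7.10 ± 0.16 in PBS (SD, n = 3 each). Ift88, whose loss removes cilia in the mouse, had log2 values of 6.90, 6.85 and 7.43 in MG and 6.83, 6.90 and 6.89 in PBS. A single array, MG replicate 3, carried its difference of 0.18, which was 0.00063 without that array.

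The BBSome, a coat complex that ferries receptors in and out of the cilium, was represented by Bbs1, Bbs2 and Bbs4. Bbs1 averaged 7.46 ± 0.29 in MG and 7.38 ± 0.07 in PBS (SD, n = 3 each). Bbs2 averaged 7.42 ± 0.21 in MG and 7.47 ± 0.06 in PBS, and Bbs4 7.05 ± 0.28 in MG and 7.02 ± 0.16 in PBS (SD, n = 3 each). The MG arrays of each of these genes reached above and below the PBS arrays.

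No ependymal or cilia gene differed between MG and PBS after adjustment. In limma 0 of 22180 genes (0%), and so 0 of the 30 members, passed an adjusted p of 0.05 (Benjamini-Hochberg). The adjusted p of every member was 0.9998. The unadjusted p was under 0.05 for 712 genes (3.21%) and for 1 of the 30 members, Dnah7a. The groups did not overlap in 7.34% of all genes and in 2 members, Dnah7a and Pifo. Means were higher in MG in 53.8% of all genes, in 14 of 23 motile genes and in 6 of 7 transport genes. Among the 1105 olfactory receptor genes that set the background, 81 had an unadjusted p under 0.05 in limma. In 114 of them the groups did not overlap, 652 had higher means in MG, and their median log2 difference was 0.06. The median log2 difference was 0.04 for the motile and 0.06 for the transport genes, beside 0.01 for all genes. Single arrays moved both medians: the motile one was -0.04 without PBS replicate 3 and 0.09 without PBS replicate 1, and the transport one was 0.0037 without MG replicate 3 and 0.14 without MG replicate 2. Without both arrays numbered 3 the medians were -0.0026 for the motile and 0.0045 for the transport genes.

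For the 17 members above background in both groups, 10 motile and 7 transport, the 95% confidence interval of the difference held 0 in each case. This was usual: of all 13645 genes above background in both groups, only 216 had an unadjusted p under 0.05 in limma. In 14 of the 17 the interval stayed within 1.5-fold in either direction, a share that was not counted for all genes. The median standard error was 0.15 for all 13645 genes, beside 0.16 for the 10 motile and 0.14 for the 7 transport genes. Intervals of this width are thus not particular to the members. The interval stayed within 1.5-fold for all 7 transport genes, whose bounds ran from -0.36 to 0.57, and for 7 of 10 motile genes. Dnali1, Tekt1 and Rsph1 were the exceptions, with bounds reaching -0.65 for Dnali1 and 0.76 for Rsph1. The number of arrays limits the precision. In these bulk cultures, fewer cells of a type and less RNA per cell cannot be told apart.

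**Figure D2:**
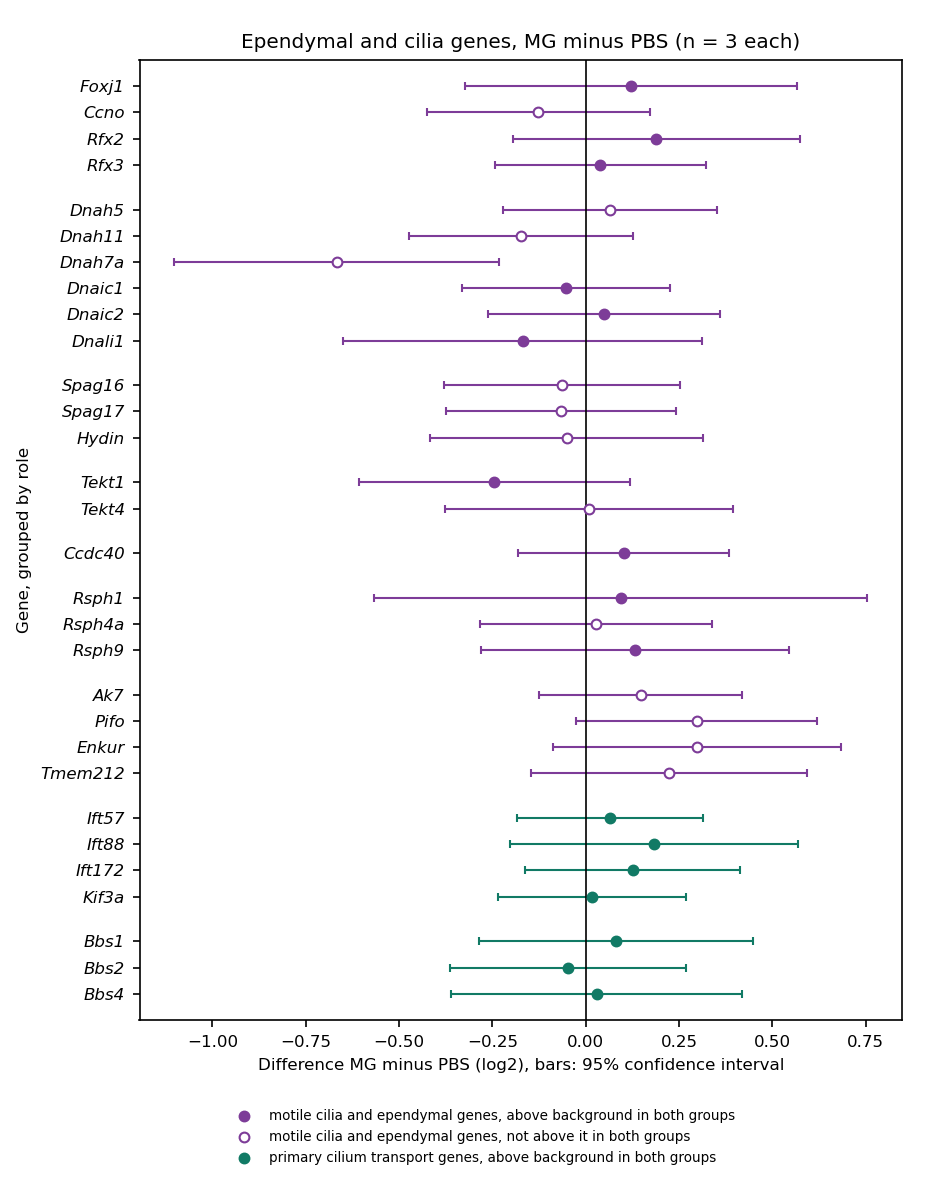
Log2 difference MG minus PBS of the 30 measured genes with 95% confidence intervals from limma (3 arrays per group), motile genes in purple and transport genes in green, with open circles for genes not above background in both groups. The intervals of all genes but Dnah7a hold 0, and Dnah7a is an open circle, below background.

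In the mean of each list, the motile genes above background and the astrocyte markers were lowest on the arrays numbered 3, where the proliferation markers were highest. The 10 motile genes above background had a mean of 0.05, 0.05 and -0.06 in MG and 0.01, 0.11 and -0.16 in PBS, relative to the average of the 6 arrays. PBS replicate 3 was the lowest PBS array for 6 of the 10 genes and the highest for 0. Over all genes, PBS replicate 3 was the lowest PBS array for 40.4% and the highest for 34.7%. In MG the order was less shared. MG replicate 3 was the lowest MG array for 5 of the 10 genes and the highest for 2, Foxj1 and Rfx2. Over all genes, it was the lowest MG array for 39.7% and the highest for 36.9%. The 8 astrocyte markers had means of 0.40, 0.24 and -0.43 in MG and -0.02, 0.23 and -0.42 in PBS. All 8 had higher means in MG, with a median log2 difference of 0.14, and 0 of them had an unadjusted p under 0.05. The 7 transport genes did not share the order, at 0.02, -0.05 and 0.13 in MG and -0.04, 0.01 and -0.07 in PBS. Other lists, described below where not yet named, also differed on MG replicate 3 and PBS replicate 3. The 7 oligodendrocyte lineage markers were low, at -0.43 and -0.28, and so were 11 ependymal genes outside the axoneme, at -0.11 and -0.24. The 78 further motile genes were near the average, at -0.03 and -0.005. Of these, the 18 multiciliation genes were high, at 0.17 and 0.21. The part of astrocyte content or proliferation in the motile values was not tested.

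**Figure D3:**
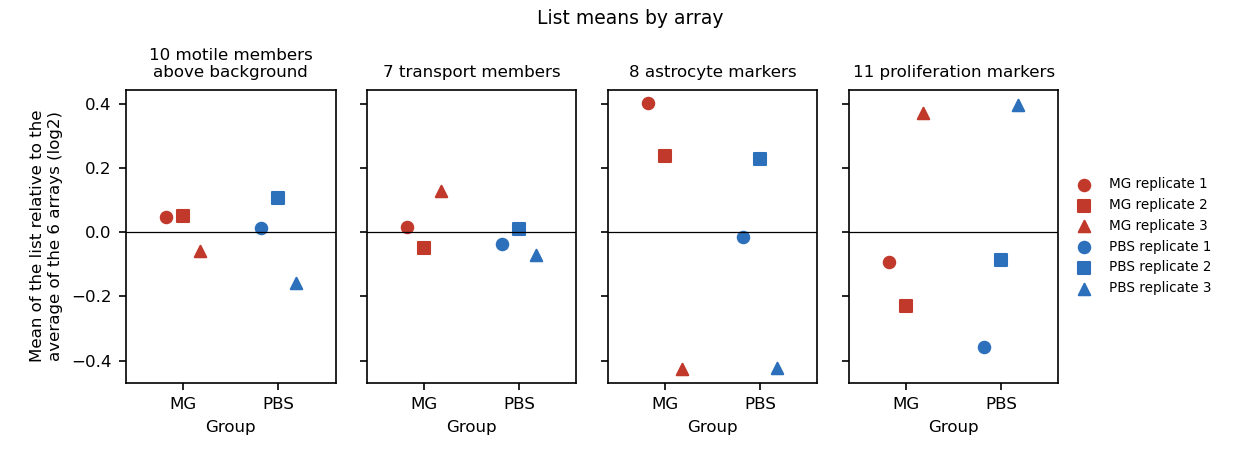
Mean of each list on each array relative to the average of the 6 arrays (log2), with MG left of PBS and 1 symbol per replicate number. Triangles, the arrays numbered 3, are low for the motile and astrocyte lists and high for the proliferation list in both groups, while for the transport genes MG replicate 3 is the highest array.

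Further genes of the same pathways were read against the same background. Of 56 further measured genes of intraflagellar transport, the BBSome, the transition zone and the ciliary membrane, 56 were above background in both groups. Of 78 further measured genes of the motile programme, 44 were (56.4%), against 61.5% of all genes. On each of the 6 arrays, 30 of these 78 genes exceeded background, beside 56 of the 56 transport genes. Of all 22180 genes, 12782 did so. Among the 78, the dynein arms and their assembly factors had 11 of 23 above background in both groups, and the spokes, central pair, links and doublets 18 of 37. The 18 genes of the multiciliation programme had 15, among them E2f4, Tfdp1, Plk4, Stil and Sass6, which also serve dividing cells. Gmnc, the geminin relative that starts multiciliation in the mouse, averaged 4.79 over the 6 arrays, below background. Its partner in the programme Mcidas, at 5.15, and Deup1, a deuterosome protein at 5.31, were narrowly above it. A set of 11 genes found in ependymal cells but not in the axoneme was above background throughout, but it includes Vim, Cd24a, Prom1, Aqp4 and S100b, which stem cells and astrocytes also make.

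Choroid plexus epithelium, which also carries cilia, was near background. Of its 7 measured markers 3 were above background in both groups (42.9%), with a list mean between 4.93 and 5.03 on the MG arrays and between 4.90 and 5.07 on the PBS arrays. Its defining marker Ttr averaged 4.80 in MG, below background, and 5.17 in PBS, narrowly above it. Of 8 markers each, 3 of microglia and 2 of endothelium were above background. All 11 measured markers of neural stem and progenitor cells were above it in both groups. So were all 8 of astrocytes, all 7 of the oligodendrocyte lineage and all 7 of neuroblasts and neurons that were measured. Differences between these shares and the 43.5% of the motile members were not tested.

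**Figure D4:**
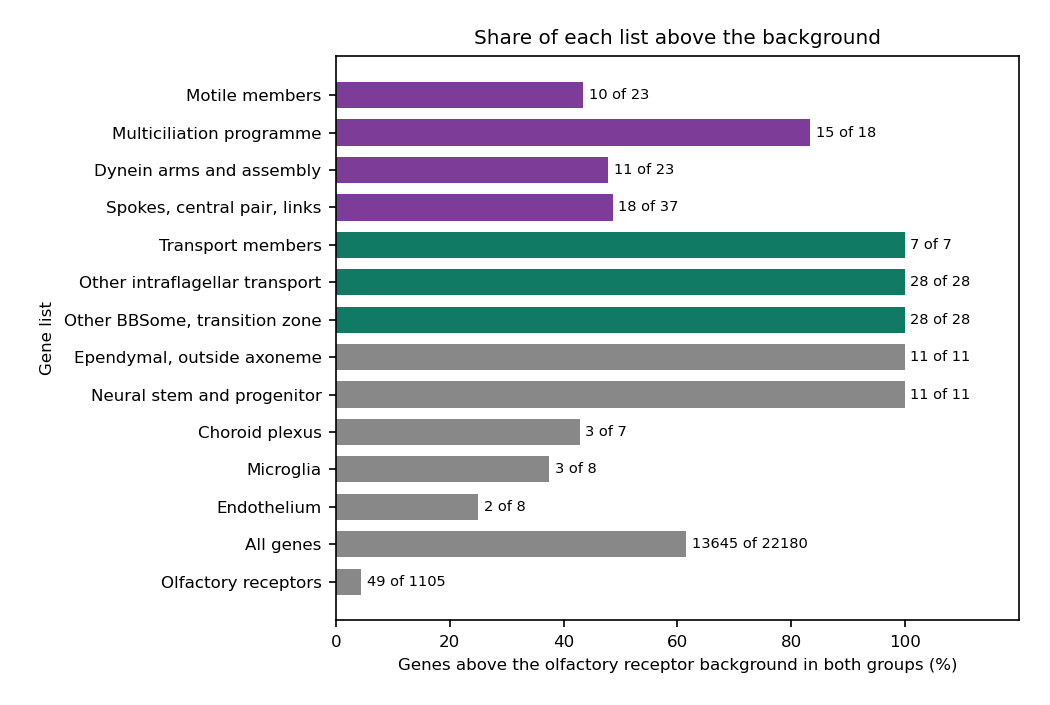
Share of each gene list whose mean exceeds the olfactory receptor background in both MG and PBS, with counts at the bar ends. Lists of motile cilia are purple, lists of transport and the primary cilium green, and other lists grey; the green bars reach 100% and the motile members stand at 43.5%.

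Few of these pathway genes had an unadjusted p under 0.05, and none passed the adjusted test. In the lists of 78 motile and 56 transport genes the counts were 0 and 1, beside the 3.21% of all genes, and the median log2 differences were -0.01 and 0.01. The transport gene was Sstr3, a somatostatin receptor placed on neuronal primary cilia, with values of 5.72, 5.85 and 5.27 in MG and 6.03, 5.97 and 6.03 in PBS. All MG values lay below all PBS values, and the difference was -0.40 with a standard error of 0.16 (unadjusted p = 0.0398, adjusted p in limma 0.9998). Without MG replicate 3 it was -0.23. Among the 11 ependymal genes outside the axoneme it was Celsr3, a cadherin that helps to orient ependymal cilia in the mouse, with values of 6.11, 6.00 and 6.39 in MG and 5.61, 5.69 and 5.94 in PBS. All MG values lay above all PBS values, and the difference was 0.42 with a standard error of 0.15 (unadjusted p = 0.0227, adjusted p in limma 0.9998).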

How the data were processed

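The values deposited by the authors are log2 intensities, 1 per probe set and array, for 41345 probe sets on 6 arrays. Their log2 scale was inferred from their range, 0.73 to 13.81. Per the submitters' processing notes the software was Partek 6.6. How background was corrected and arrays were normalised is not stated in them, and the effect of these steps on dim genes was not tested. Probe sets were named through the platform annotation, with symbols updated through RefSeq (GRCm38.p6): 23521 named 1 gene, 1814 several, and 16010 were unnamed here. Of several probe sets of a gene, the one with the highest mean over the 6 arrays was used.

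MG was compared with PBS by limma 3.58.1 in R 4.3.3 (lmFit, eBayes, two-sided, no covariate) over 22180 genes, with Benjamini-Hochberg adjustment over all of them, a threshold of 0.05 and no filter on dim genes. The steps were tested on simulated data. Motifs were counted by gene, on both strands. Members, lists and alternatives were chosen with earlier results of these data known. The naming rule gave all members, with array values for Foxj1 and for members above background with an unadjusted p under 0.2, and, from pathway lists, up to 4 genes above background with an unadjusted p under 0.05. The X-box form was chosen after several forms had been counted. Array values of Dnah7a, Pifo, Ak7, Rsph1, Ift57 and Ift88, and the genes named for their level alone, were added after they were seen. Figures were drawn with matplotlib 3.10.9.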

Additional observations from a re-analysis of the deposited data

How the results depend on the processing

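No gene passed the adjusted threshold in any of 15 alternatives, and the lowest adjusted p of a member was 0.913. Of 437 values of members, 393 kept their direction and 44, of 18 members, turned sign; the cause was not tested. The count of motile genes above background was 5 at the 99th percentile and between 9 and 13 in the other settings, and the transport count was 7 in all. The settings were other percentiles, vomeronasal receptors added, every array above background, other probe set rules, quantile normalisation, median centring and, added after seeing the data, both arrays numbered 3 left out. The median differences ranged, with 1 array left out, from -0.045 to 0.093 (motile) and from 0.0037 to 0.14 (transport), and without both arrays numbered 3 they were -0.0026 and 0.0045.

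Members with an unadjusted p under 0.05 numbered 2 with array weights or without both arrays numbered 3 (Tmem212 joined Dnah7a) and 0 with dim genes left out or with shared probe sets; with 1 array left out they numbered 1 to 2, Pifo joining without PBS replicate 1 and Enkur without PBS replicate 2. Among all genes the count was 1163 with array weights, 266 with dim genes left out and 416 to 956 with 1 array left out. The lowest of these, 416, was without PBS replicate 1. The replicate numbers are not taken to pair the arrays. Same-numbered deviations correlated at 0.218, 0.04 and 0.447, and unlike-numbered ones at -0.366 to 0.256. The highest was that of the arrays numbered 3, and whether same-numbered arrays shared a batch was not tested. With the replicate block the counts were 1063 genes, 1 member and 0 adjusted calls, and the medians were 0.039 and 0.065.

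Without both arrays numbered 3, the difference was -0.12 for Foxj1, 0.0046 for Spag16, -0.22 for Tekt4, -0.17 for Rsph1, -0.051 for Rsph4a, -0.072 for Bbs1, 0.012 for Bbs2 and -0.0087 for Bbs4. With array weights it was 0.010 for Spag16, -0.16 for Tekt4, -0.17 for Rsph1, -0.039 for Bbs1, 0.039 for Bbs2 and -0.058 for Bbs4. Averaged probe sets gave 0.011 for Spag17 and 0.027 for Hydin, quantile normalisation 0.0055 for Hydin, and the shared probe set 0.030 for Dnah7a. With 1 array left out the difference ran from -0.045 to 0.27 for Foxj1, -0.030 to 0.093 for Rfx3, -0.0016 to 0.13 for Dnah5, -0.10 to 0.0086 for Dnaic1, -0.042 to 0.15 for Dnaic2, -0.30 to 0.061 for Dnali1, -0.14 to 0.016 for Spag16, -0.17 to 0.017 for Spag17 and -0.17 to 0.059 for Hydin. It ran from -0.12 to 0.12 for Tekt4, -0.16 to 0.33 for Rsph1, -0.059 to 0.13 for Rsph4a, -0.0061 to 0.26 for Rsph9, -0.013 to 0.041 for Kif3a, -0.075 to 0.20 for Bbs1, -0.17 to 0.031 for Bbs2 and -0.095 to 0.18 for Bbs4. Pifo and Dnah7a, whose groups do not overlap, could not turn sign when an array was left out. Nearness to background limits what can be said of the 13 motile genes that did not exceed it in both groups.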

Other observations

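Rsph3a, a radial spoke gene outside the 32, had values of 5.99, 5.85 and 4.77 in MG and 6.09, 6.25 and 6.10 in PBS, with a difference of -0.61 (unadjusted p = 0.0732, adjusted p in limma 0.9998). Without MG replicate 3 it was -0.22. Rsph3b, of the same list, had a difference of -0.04. Ift74, which encodes a partner of Ift81 in the transport complex, had values of 7.05, 7.29 and 7.17 in MG and 7.47, 7.53 and 7.32 in PBS. Its groups did not overlap, and the difference was -0.27 with a standard error of 0.12 (unadjusted p = 0.0623, adjusted p in limma 0.9998). Ift81 itself had a difference of 0.01. The groups did not overlap in 1 of the 28 genes of this list, against 7.34% of all genes. Rsph3a and Ift74 were chosen after their values were seen.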
